A study of Danio rerio with 12 samples.

Results

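Among the rows of the expression table, 5 rows, CR762497.1, zdhhc13, map7d3, wasla and atp6ap1a, were examined because they lie on the strand opposite a muscle gene and inside or close to its 3′ end. The muscle genes are acta1b, csrp3, fhl1a, lmod2a and tnnc1a. The rows were chosen by name and their pairing was checked by chromosome, start, end and strand. All 5 were found among the 32520 rows listed, and all 5 are among the 400 rows that held values and passed the filter. The 5 muscle genes are listed in the table without values, and their own levels were not analysed here.

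The libraries came from cardiac tissue of zebrafish (Danio rerio). The groups were Tg(myl7:ATF3) hearts, abbreviated TG, and wild-type (WT) sibling hearts, at 12 and at 4 months post-fertilization (mpf), with 3 biological replicates in each of the 4 groups. ATF3 is a stress-induced transcription factor, and the myl7 promoter drives it in heart muscle cells, while the tissue also holds other cells. The ages were sampled to look at effects of ATF3 soon after maturity and as they progress. Neither atf3 nor myl7 had values, so the transgene and the heart muscle marker were not analysed here.

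The sarcomere is the contractile unit of striated muscle. Actin thin filaments, regulated by troponin and calcium, slide along myosin, and LIM-domain proteins at the Z-disc link the filaments to signalling. Among the muscle genes, acta1b codes for an alpha-actin of striated muscle and tnnc1a for a troponin C, the calcium sensor of the thin filament. The leiomodin gene lmod2a codes for a nucleator and length regulator of actin filaments, csrp3 for the muscle LIM protein and fhl1a for a LIM-only protein of muscle that responds to stretch. The members' own products are of other kinds: zdhhc13 codes for a protein of the palmitoyltransferase family, map7d3 for a microtubule-associated protein, wasla for an N-WASP homologue that activates the Arp2/3 complex, and atp6ap1a for an accessory subunit of the vacuolar proton pump. CR762497.1 is a processed transcript, listed as si:dkey-162b3.5 in the gene name table, and no role is given for it.

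The members fall into 2 kinds of position. CR762497.1 and zdhhc13 contain the annotated 3′ end of the opposite muscle gene, so that the last part of both genes overlaps tail to tail. On GRCz11 CR762497.1 lies on the minus strand of chromosome 13 from 24283670 to 24286390, and acta1b on the plus strand from 24279021 to 24284442, with 773 bases shared. The row of zdhhc13 lies on the plus strand of chromosome 7 from 16509201 to 16549089, and csrp3 on the minus strand from 16548219 to 16562202, with 871 bases shared.

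The other members end downstream of the muscle gene without overlap. The 3′ ends of map7d3 (chromosome 14, minus strand, 31668510 to 31715412) and fhl1a (plus strand, 31651533 to 31668498) lie 12 bases apart. The end of wasla (chromosome 25, plus strand, 27744293 to 27812810) lies 3305 bases beyond that of lmod2a (minus strand, 27816115 to 27819838). The end of atp6ap1a (chromosome 23, minus strand, 4899238 to 4915118) lies 3362 bases beyond that of tnnc1a (plus strand, 4890693 to 4895876). For each member the named muscle gene was the 1 gene of the other strand that overlapped it or ended within 5000 bases of it, and no gene on the member's own strand overlapped it. The table gives spans only, so whether the shared bases are exonic was not analysed here.

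**Figure D1:**
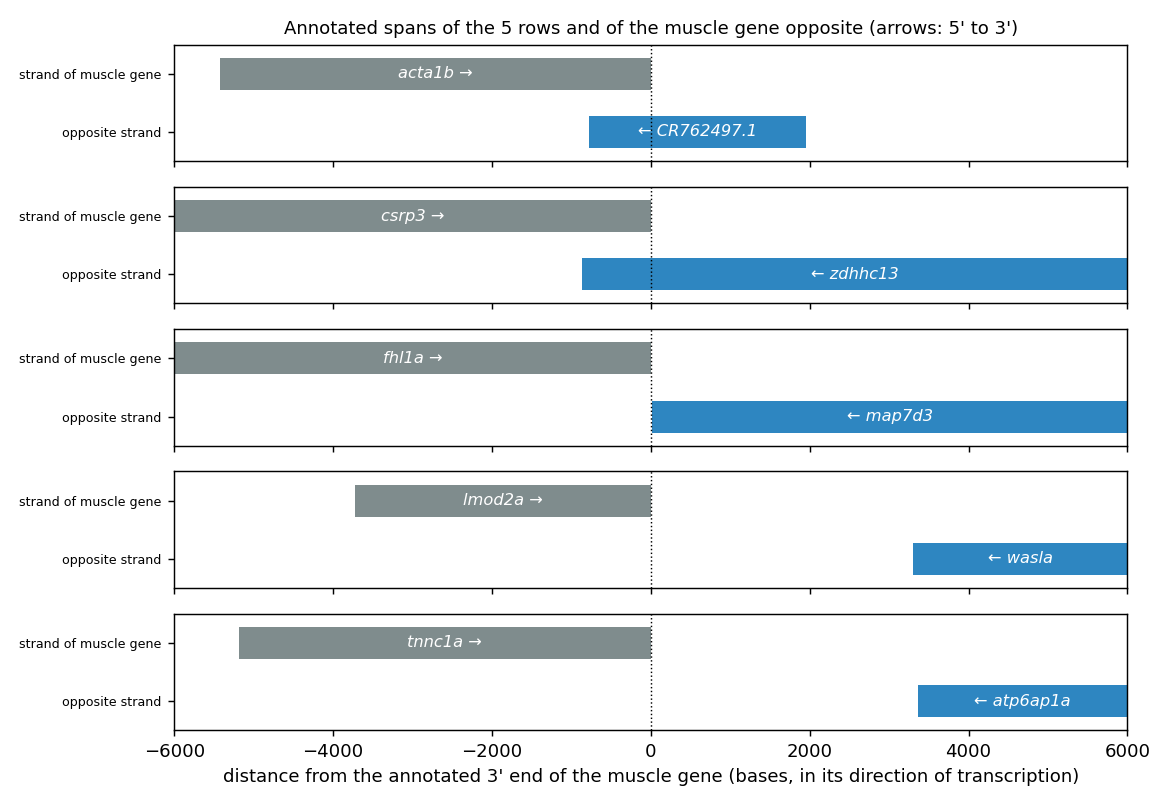
Annotated spans of the 5 members (blue) and of the muscle gene on the opposite strand (grey), drawn to scale along the muscle gene's direction of transcription, with 0 at its annotated 3′ end (distance in bases). Spans that pass the edge are cut at 6 kb; CR762497.1 and zdhhc13 cross the 3′ end of their partner by 773 and 871 bases, while map7d3, wasla and atp6ap1a end 12, 3305 and 3362 bases beyond it.

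The libraries were made with a kit that reads the 3′ end of polyadenylated RNA and keeps the strand, per the labels' protocols. How strand was set in the counting is not stated in those sources. Where the spans overlap, as for CR762497.1 and zdhhc13, reads of a member and of the muscle gene opposite therefore cannot be told apart. The annotated spans of map7d3, wasla and atp6ap1a share no bases with the muscle gene. For them this would concern only reads beyond an annotated end, which were not analysed here. The names below therefore stand for rows of the table. In tissue, fewer cells of a type and less RNA per cell cannot be told apart either.

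The deposited unit was FPKM, which divides a fragment count by transcript length and by a factor of the library. The length in that unit spreads a 3′ signal over the whole transcript, and the recovered lengths were 692 bases for CR762497.1, 3093 for zdhhc13, 4931 for map7d3, 2934 for wasla and 3578 for atp6ap1a. Whole reads could be recovered behind every value, and they are given beside the FPKM. The reads recovered in the 400 rows numbered 133852 to 286257 per library at 12 mpf and 589598 to 1092280 at 4 mpf. Outside rRNA and mitochondrial rows they numbered 32278 to 49326 at 12 mpf and 30614 to 44673 at 4 mpf. The recovered factor of the library was 332048 to 510511 at 12 mpf and 456122 to 620607 at 4 mpf. It lay above the reads recovered in the 400 rows in each library of 12 mpf, and below them in each library of 4 mpf. The basis of the factor is not stated in the sources used here. Between 3 and 9 of the 400 rows were at 0 in a library of 12 mpf, and between 46 and 193 in a library of 4 mpf. The rRNA rows took 18.0% to 41.3% of the recovered reads at 12 mpf and 82.7% to 90.4% at 4 mpf. The mitochondrial row mt-nd6 alone took 37.1% to 55.1% at 12 mpf and 3.49% to 10.5% at 4 mpf.

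CR762497.1, opposite the actin gene acta1b, was the most abundant member per length. At 12 mpf its 3 libraries were at 5753, 6675 and 5049.9 FPKM in TG hearts and at 5375, 5143 and 10075 FPKM in WT hearts. The genotypes overlapped at that age. At 4 mpf it was at 867, 1236 and 681 FPKM in TG hearts and at 7416, 1747 and 2608 FPKM in WT hearts. All 3 TG libraries lay below all 3 WT libraries there, and WT replicate 1 stood far above the other WT replicates. These values rest on 215 to 531 reads per TG library and 669 to 2932 reads per WT library at 4 mpf. As a share of the reads outside rRNA and mitochondrial rows, CR762497.1 held 0.702% to 1.19% in TG and 1.59% to 7.17% in WT libraries of 4 mpf, again without overlap.

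The row of zdhhc13, opposite the LIM protein gene csrp3, was the 1 member whose genotypes were separate at 12 mpf. There it was at 253, 120.4 and 118 FPKM in TG hearts and at 37.5, 12.0 and 51.6 FPKM in WT hearts. All 3 TG libraries lay above all 3 WT libraries, and the lowest value was that of WT replicate 2. They rest on 182 to 313 reads per TG library and 18 to 53 reads per WT library, or 0.369% to 0.763% and 0.0439% to 0.164% of the reads outside rRNA and mitochondrial rows. At 4 mpf it was at 196, 401 and 113 FPKM in TG hearts and at 208, 97.6 and 102 FPKM in WT hearts. The genotypes overlapped there, and WT hearts of 12 mpf were the 1 group in which zdhhc13 stood apart from the rest.

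The row of map7d3, next to the 3′ end of the LIM gene fhl1a, differed mainly between the ages. At 12 mpf it was at 619, 653 and 489 FPKM in TG hearts and at 576, 448 and 367 FPKM in WT hearts. At 4 mpf it was at 128, 199.99 and 123 FPKM in TG hearts and at 96.2, 200.1 and 384 FPKM in WT hearts. The genotypes overlapped at both ages. The TG libraries of 12 mpf all lay above those of 4 mpf, while WT replicate 3 of each age had 367 FPKM at 12 mpf and 384 FPKM at 4 mpf, so that the WT groups overlapped.

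The row of wasla, downstream of the leiomodin gene lmod2a, had lower group means in TG hearts at both ages, with overlap. At 12 mpf it was at 137, 29.98 and 61.4 FPKM in TG hearts and at 166, 60.6 and 143 FPKM in WT hearts. At 4 mpf it was listed at 0 in TG replicate 1 and at 62.1 and 117 FPKM in the other TG libraries, against 141, 90.5 and 253 FPKM in WT hearts. For the library at 0 a floor of 3 reads corresponds to 1.88 FPKM, so any level up to that one is not detectable there, counting error only. Reads of these libraries carry no molecular identifiers in the labels' protocols, and each read was counted as a separate molecule.

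The row of atp6ap1a, downstream of the troponin C gene tnnc1a, was the lowest of the members at 4 mpf. At 12 mpf it was at 76.2, 125 and 91.97 FPKM in TG hearts and at 103, 8.66 and 116 FPKM in WT hearts, where replicate 2, with 15 reads, stood apart from the others. At 4 mpf it was listed at 0, 26.1 and 0 FPKM in TG hearts and at 14.2, 0 and 24.3 FPKM in WT hearts. The floors of the 3 libraries at 0 were 1.54, 1.84 and 1.52 FPKM. At 4 mpf the values above 0 rest on 29 to 58 reads each.

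**Figure D2:**
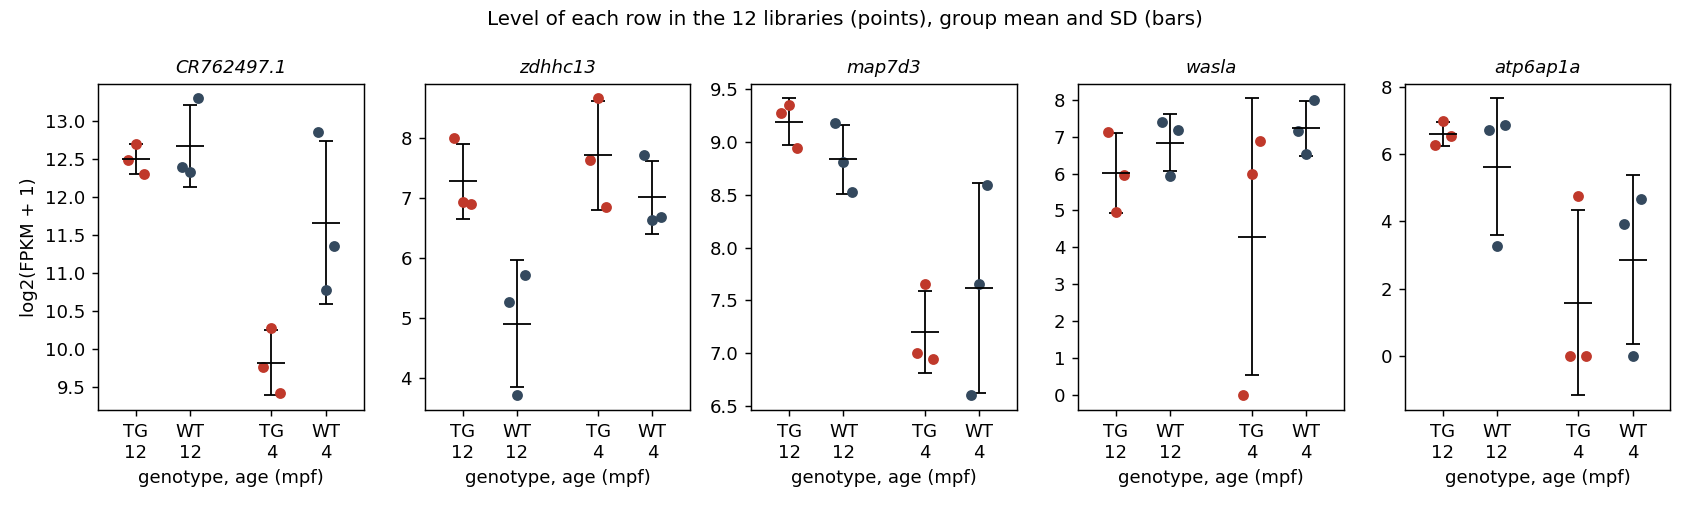
Level of each member in the 12 libraries as log2(FPKM + 1), with 1 point per library, TG in red and WT in dark blue, and the mean and SD of each group of 3 as bars; each panel has its own scale. TG and WT libraries are separate for zdhhc13 at 12 mpf (118 FPKM or more against 51.6 FPKM or less) and for CR762497.1 at 4 mpf (1236 FPKM or less against 1747 FPKM or more), and points at 0 are libraries in which the row was listed at 0.

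The order of the 4 groups differed between the members on the log2(FPKM + 1) scale. For CR762497.1 it was WT at 12 mpf, TG at 12 mpf, WT at 4 mpf and TG at 4 mpf, and the last step, of 1.84, was the 1 step larger than the SD of both groups it separates. For zdhhc13 it was TG at 4 mpf, TG at 12 mpf, WT at 4 mpf and WT at 12 mpf, where again the last step, of 2.11, was larger than either SD. For map7d3 the order was TG at 12 mpf, WT at 12 mpf, WT at 4 mpf and TG at 4 mpf, with 2 steps larger than either SD. They were the step between the genotypes at 12 mpf, of 0.35 against a larger SD of 0.33, and the step between the ages, of 1.22 against a larger SD of 0.99. For atp6ap1a the order was the same, and its step between the ages was 2.75 against a larger SD of 2.51. For wasla every step was smaller than the larger SD of the groups it separates. Within groups the SD of CR762497.1 was below the median SD of all 400 rows in each group. At 12 mpf it was 0.20 against 0.46 in TG and 0.54 against 0.56 in WT hearts. At 4 mpf it was 0.43 against 1.27 in TG and 1.08 against 2.03 in WT hearts. By mean FPKM CR762497.1 ranked 5 to 12 among the 400 rows, and the medians at 4 mpf include rows listed at 0. How far the SD follows the level was not tested. The SD of map7d3 was also below that median in every group. That of zdhhc13 was above it at 12 mpf, at 0.62 in TG and 1.06 in WT hearts, and below it at 4 mpf. The SD of wasla was above it in all groups but WT at 4 mpf, and that of atp6ap1a in all but TG at 12 mpf.

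The comparison of TG with WT hearts at 12 mpf addressed the later effect of the transgene. The row of zdhhc13 had a log2 difference of 2.38 (SE 0.67, 95% interval 0.91 to 3.84) and did not pass (limma across all 400 rows, Benjamini-Hochberg adjusted p = 0.852). It had the second smallest p of the 400 rows (rank 2). The other 4 members had log2 differences of -0.17 (CR762497.1, interval -1.24 to 0.89), 0.35 (map7d3, -0.67 to 1.37), -0.82 (wasla, -3.97 to 2.33) and 0.98 (atp6ap1a, -2.53 to 4.49). None of the 5 passed by limma, against 0% of all rows, or by limma voom on the recovered reads, against 0% of all rows. At an unadjusted p under 0.05 limma had 1 of the 5 members and 3.25% of all rows. The groups did not overlap, with TG higher, in 1 of the 5 members and in 11.5% of all rows.

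The p of zdhhc13 at 12 mpf depended on how the spread was estimated. With the 6 libraries of that age alone its adjusted p was 0.169 (SE 0.57, limma). With libraries weighted by their spread (limma arrayWeights) it was 0.0403, with a log2 difference of 2.33, higher in 3 of 3 TG libraries than in any WT library, and 0.5% of all rows passed. Over its 23 alternatives the log2 difference lay between 1.78 and 2.79, and the adjusted p between 0.0403 and 0.9998. The lowest difference came without WT replicate 2 of 12 mpf, the library with 18 reads.

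At 4 mpf CR762497.1 was the 1 member with separate groups. Its log2 difference was -1.84 (SE 0.49, 95% interval -2.90 to -0.78), the TG level being 0.279 of the WT level, and it did not pass (limma, adjusted p = 0.0710). Without WT replicate 2 of 4 mpf it was -2.29 and passed (limma, adjusted p = 0.0267). Over its 23 alternatives it lay between -2.29 and -1.24, with adjusted p between 0.0267 and 0.625, and the smallest difference came without WT replicate 1, the highest library. The other members had log2 differences of 0.70 (zdhhc13, interval -0.77 to 2.17), -0.41 (map7d3, -1.43 to 0.61), -2.93 (wasla, -6.08 to 0.22) and -1.28 (atp6ap1a, -4.79 to 2.24). None of the 5 members passed by limma, against 3.25% of all rows, or by limma voom, against 3.5%. At an unadjusted p under 0.05 limma had 1 of the 5 members and 18.5% of all rows. The groups did not overlap, with TG lower, in 1 of the 5 members and in 4.75% of all rows.

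In the main fit the rows named for the blood cell markers hemgn and cd22 passed between the genotypes at 4 mpf, and cd22 in other comparisons too. These names also stand for rows of the table. The row of hemgn contains the 3′ end of trmo on the other strand, with 383 bases shared. The 3′ end of ncam3, on the strand opposite cd22, lies 2264 bases from it. Of the erythrocyte list 1 of 13 rows had values, hemgn, at 20.5 to 45.8 FPKM in TG and 0 to 6.09 FPKM in WT hearts (limma, adjusted p = 0.0285). Of the leukocyte list 1 of 14 rows had values, the B-cell gene cd22, at 70.3 to 177 FPKM in TG hearts and listed at 0 in the 3 WT libraries (limma, adjusted p = 0.00308). The defining markers on the lists of other cells, such as globin genes, ptprc, kdrl and tcf21, had no values. At 12 mpf hemgn was at 4.82 to 11.7 FPKM in TG and 7.31 to 11.9 FPKM in WT hearts, and cd22 at 17.7 to 90.3 FPKM in TG and 6.76 to 21.9 FPKM in WT hearts. The row of cd22 also passed over both ages (4.35, limma, adjusted p = 0.00767) and with age in WT hearts (3.64, limma, adjusted p = 0.0439). Their part in the members' values was not tested.

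**Figure D3:**
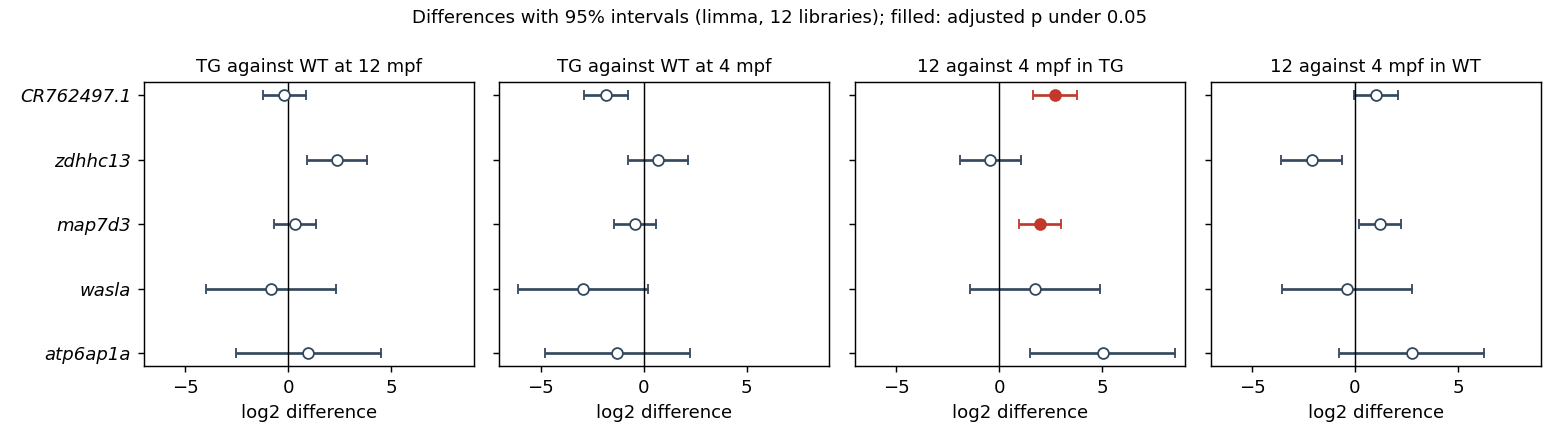
Log2 difference of each member with its 95% interval (limma fitted to all 12 libraries) for TG against WT at 12 and at 4 mpf and for 12 against 4 mpf in TG and in WT hearts; filled red points passed an adjusted p of 0.05. The 2 filled points are CR762497.1 (2.68) and map7d3 (1.99) for 12 against 4 mpf in TG hearts, and no member passed in a comparison of genotypes.

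Over both ages 0 of the 5 members passed between the genotypes by limma, against 1% of all rows, and 0 by limma voom, against 1.25%. At an unadjusted p under 0.05 limma had 2 of the 5 members and 10.8% of all rows. The log2 difference was 1.54 for zdhhc13 (SE 0.48, adjusted p = 0.196), -1.01 for CR762497.1 (SE 0.34, adjusted p = 0.255) and -1.88 for wasla (SE 1.02, adjusted p = 0.564). It was -0.03 for map7d3 and -0.15 for atp6ap1a. The sign of the last 2 changed with the setting.

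The difference between the genotype effects at both ages (interaction, 12 minus 4 mpf) was above 0 in all 5 members, and in 44% of all rows. None of the 5 passed by limma, against 0.5% of all rows, or by limma voom, against 0.25%. At an unadjusted p under 0.05 limma had 1 of the 5 members and 8.25% of all rows. The difference was 1.67 for CR762497.1 (SE 0.69, adjusted p = 0.515) and 1.68 for zdhhc13 (SE 0.95, adjusted p = 0.761). The values for the others were 0.76 (map7d3), 2.11 (wasla) and 2.25 (atp6ap1a), with adjusted p of 0.893 or more. The median over the members was 1.68, beside -0.20 over all rows. With a library left out the median over all rows ran from -0.57, without WT replicate 3 of 4 mpf, to 0.22, without WT replicate 1. The latter library had 193 of the 400 rows at 0, and all 5 members stayed above 0 without it. With arrayWeights the median over all rows was -0.04. In wasla the sign turned without TG replicate 1 of 4 mpf (-0.04), the library at 0.

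CR762497.1 and map7d3 rose with age in TG hearts. This comparison and that of the genotypes at 4 mpf share the TG libraries of 4 mpf. CR762497.1 averaged 5826 ± 815 FPKM at 12 mpf and 928 ± 283 FPKM at 4 mpf (SD, n = 3), a log2 difference of 2.68 (SE 0.49, limma, adjusted p = 0.0190). The row of map7d3 averaged 587 ± 86.2 FPKM at 12 mpf and 150.1 ± 43.3 FPKM at 4 mpf (SD, n = 3), a log2 difference of 1.99 (SE 0.47, limma, adjusted p = 0.0424). The row of atp6ap1a had a log2 difference of 5.01 (SE 1.61) and did not pass (limma, adjusted p = 0.136), but passed by limma voom (6.29, adjusted p = 0.0335), by which 3 of the 5 members and 4.5% of all rows passed. The log2 difference was 1.72 for wasla and -0.43 for zdhhc13, neither of which passed. Of the 5 members 2 passed as higher, against 2% of all rows, and in 3 of the 5 all libraries of 12 mpf lay above all those of 4 mpf, against 22.2% of all rows.

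Both calls were lost under some settings, with the differences above 0 in all 22 alternatives of each. With each library left out in turn the log2 difference of CR762497.1 lay between 2.48 and 2.91 and that of map7d3 between 1.86 and 2.21. The call of CR762497.1 was lost without TG replicate 3 of 4 mpf (adjusted p = 0.0682) and without TG replicate 2 or 3 of 12 mpf (0.106 and 0.0841). It passed in 17 of its 22 alternatives, map7d3 in 10 of 22 (adjusted p 0.00296 to 0.106 for CR762497.1 and 0.0103 to 0.147 for map7d3). With eBayes without trend and robust estimation both calls were lost (adjusted p = 0.0954 and 0.147, limma). The call of map7d3 was lost without any 1 library of TG hearts or of WT hearts at 12 mpf (adjusted p 0.0545 to 0.137). It was also lost under scaling to the reads outside rRNA and mitochondrial rows (log2 difference 1.56, adjusted p = 0.0974). That scaling moved the median of all 400 rows from 0.64 by -0.36, so the difference of map7d3 relative to the median changed less.

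In WT hearts 0 of the 5 members passed between the ages by limma, against 4% of all rows, and 0 by limma voom, against 7.25%. At an unadjusted p under 0.05 limma had 2 of the 5 members and 23% of all rows. The row of zdhhc13 averaged 33.7 ± 20.1 FPKM at 12 mpf and 136 ± 62.8 FPKM at 4 mpf (SD, n = 3), a log2 difference of -2.11 (SE 0.67, 95% interval -3.58 to -0.64, limma, adjusted p = 0.0977). The libraries of 12 mpf all lay below those of 4 mpf in 1 of the 5 members, zdhhc13, and in 7.5% of all rows. Over all rows the median log2 difference was 1.03, so zdhhc13 lay on the other side of 0. The log2 difference was 1.01 for CR762497.1, 1.22 for map7d3, -0.39 for wasla and 2.75 for atp6ap1a. The row of map7d3 passed without WT replicate 3 of 4 mpf (1.71, limma, adjusted p = 0.0221).

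The ages also stood apart in the share of rRNA, in the share of mt-nd6 and in the number of rows at 0, with the ranges given above. The age and these measures of library quality and composition cannot be told apart in either genotype. For atp6ap1a the 3 libraries at 0 were all of 4 mpf, as was the library of wasla at 0.

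The members did not follow each other closely. After subtracting the mean of each age from the log2 values, Pearson's r over the 12 libraries lay between -0.14 (zdhhc13 and wasla) and 0.55 (CR762497.1 and atp6ap1a) in the 10 pairs, with Spearman's rho between -0.31 and 0.47. These correlations are descriptions, since the points share libraries and their depth.

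By the same measure the rows most like zdhhc13 among 270 rows with a proper symbol were cmbl, a carboxymethylenebutenolidase homologue (r 0.79, rho 0.75), dhx32a (0.70, 0.82) and and1, an actinodin of the fish fin (0.69, 0.76). The row of cmbl was at 1222 to 1702 FPKM in TG and 656 to 1290 FPKM in WT hearts at 12 mpf, which overlap. For map7d3 they were zmynd11 (r 0.88, rho 0.76), glsl (0.84, 0.72) and suv39h1b (0.82, 0.62). Each of these was listed at 0 in WT replicate 1 of 4 mpf, the library in which map7d3 was lowest. In that library 193 of the 400 rows were at 0, so a shared 0 there says little about likeness. For wasla the rows most alike were abraxas1 (r 0.91, rho 0.59), dock10 (0.87, 0.66) and sall4 (0.85, 0.43). In TG replicate 1 of 4 mpf, where wasla was listed at 0, they were at 0, 3.89 and 0.422 FPKM, each the lowest of its group. For atp6ap1a they were ybey (r 0.79, rho 0.92), arid1b (0.76, 0.63) and slc25a1a (0.75, 0.68). All 3 were listed at 0 in TG replicate 3 and WT replicate 2 of 4 mpf, as atp6ap1a was. Those libraries had 98 and 134 of the 400 rows at 0. For CR762497.1 the rows most alike were cilp (r 0.80, rho 0.59), papss2b (0.77, 0.59) and mt-co2 (0.67, 0.44). At 4 mpf each of them was highest in WT replicate 1, as CR762497.1 was. Over the 6 libraries of 12 mpf alone r was lower for several of these rows, at -0.53 for mt-co2 with CR762497.1, -0.08 for dock10 with wasla and 0.03 for suv39h1b with map7d3, against 0.93, 0.995 and 0.91 over those of 4 mpf. None of these 15 rows lies within 5000 bases of the 3′ end of a listed muscle gene on the other strand.

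Beyond the members, 5 further rows with values lay opposite a gene of 5 lists of sarcomere, Z-disc, stress and calcium-handling genes and within 5000 bases of its 3′ end. The lists had 166 listed rows, with values for the calcium channel gene ryr3 alone, and 10 (6.02%) of the 166 had such a row opposite. Among all listed protein-coding genes, 1.51% had one. On the lists of other cells the share ran from 0% for endothelium and for erythrocytes to 14.3% for leukocytes (2 of 14 rows). It was 3.70% for fast skeletal muscle (1 of 27 rows), 6.67% for epicardium and fibroblasts (1 of 15) and 10% for smooth muscle (1 of 10). The 10 listed muscle genes include those opposite the 5 members, which were examined because of that position. Members and lists were chosen with earlier results of these data known, so these shares are descriptions. The further rows were aven (opposite ryr3, 919 bases shared), CR376766.3 (an antisense row inside klhl31, which codes for a Kelch-like protein of muscle), BX294113.1 (opposite the junctophilin gene jph1a), CABZ01057891.1 (331 bases from the end of the vinculin gene vclb) and trpc4apa (1556 bases from the end of the myosin heavy chain gene myh7ba).

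CR376766.3 was the 1 of these 5 rows that passed in a comparison. It was at 1701, 1131 and 1480.2 FPKM in TG and at 1259.8, 1115 and 1543 FPKM in WT hearts at 12 mpf, and at 72.3, 586 and 244 FPKM in TG and 1396, 438 and 868 FPKM in WT hearts at 4 mpf. It rose with age in TG hearts by 2.69 on the log2 scale (limma, adjusted p = 0.0424), while its genotype difference at 4 mpf, -1.89, did not pass (limma, adjusted p = 0.177). The call with age was lost without TG replicate 3 of 12 mpf and with the replicate block, where no row of the table passed in that comparison. The genotypes of CR376766.3 overlapped at both ages.

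At 4 mpf 2 of these 10 rows, members included, had a log2 difference above 0 between TG and WT hearts, with a median of -1.56. Over all rows 56.5% were above 0, with a median of 0.25. With a library left out that median over all rows ran from -0.03, without WT replicate 1 of 4 mpf, to 0.61, without WT replicate 3. In WT replicate 1 of 4 mpf 193 of the 400 rows were at 0. None of the 10 passed. At 12 mpf 5 of the 10 were below 0, with a median of 0.05, beside 0.07 over all rows. With age in TG hearts 9 of the 10 had a log2 difference above 0, with a median of 2.53, beside 66.5% above 0 and a median of 0.64 over all rows. In the main fit 3 of the 10 passed as higher, against 2% of all rows. The members CR762497.1 and map7d3 were 2 of these 3. In WT hearts 7 of the 10 were above 0, with a median of 1.12, beside 74.5% and 1.03. The first and the third of these comparisons share the TG libraries of 4 mpf. Of the 5 rows that are no member, 1 was above 0 at 4 mpf (median -1.885) and 2 at 12 mpf (median -0.02). With age 5 of them were above 0 in TG hearts (median 2.69) and 4 in WT hearts (median 1.32). The muscle gene row ryr3, opposite aven, was at 2.13 to 3.99 FPKM at 12 mpf and 5.34 to 9.13 FPKM at 4 mpf in TG hearts. Its log2 difference with age was -1.06 in TG and -0.43 in WT hearts (limma, adjusted p = 0.594 and 0.805). The row of aven was at 25.0 to 53.0 FPKM at 12 mpf and 0 to 14.6 FPKM at 4 mpf in TG hearts.

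**Figure D4:**
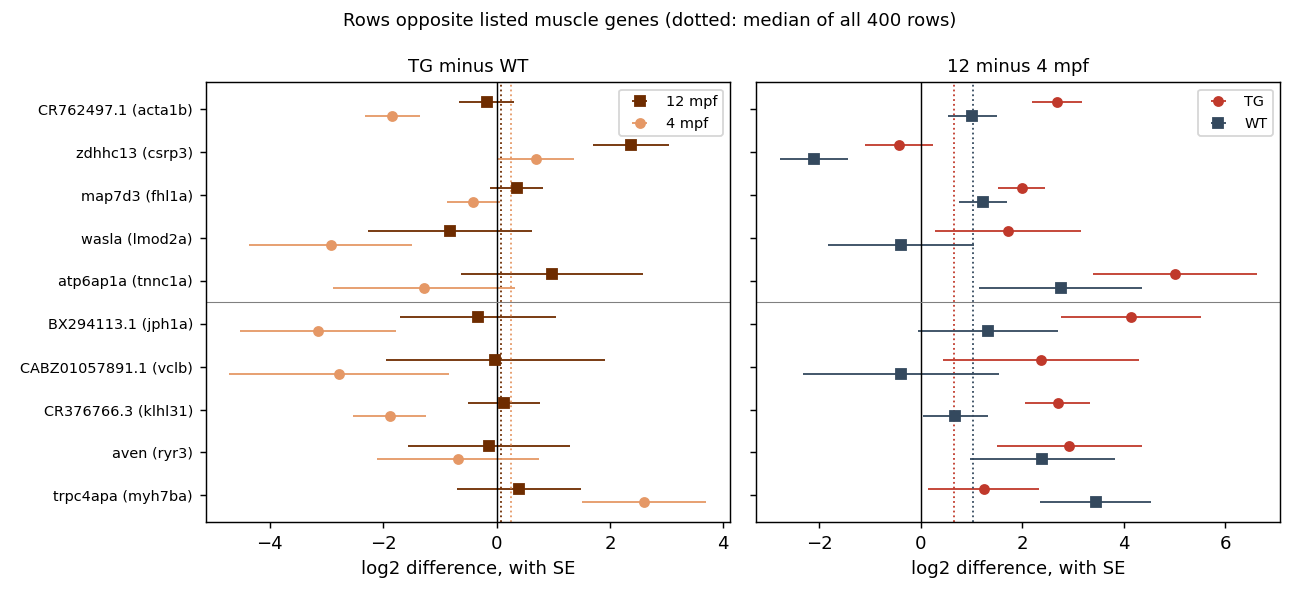
Log2 differences with SE of the 10 rows opposite listed muscle genes (the gene opposite in brackets), the 5 members above the line, for TG minus WT at both ages and for 12 minus 4 mpf in both genotypes; dotted lines give the median of all 400 rows. At 4 mpf 8 of the 10 rows lie below 0, and with age in TG hearts 9 of the 10 lie above it.

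Rows that share a function with a member's own product gave few values. Of 39 rows for palmitoyltransferases and thioesterases 3 had values, and apart from zdhhc13 these were zdhhc16b and the lysosomal thioesterase gene ppt1. At 12 mpf ppt1 was at 116 to 143 FPKM in TG and 94.8 to 147 FPKM in WT hearts, a log2 difference of 0.17, and zdhhc16b was at 3.11 to 4.87 and 2.80 to 9.62 FPKM, a difference of -0.53. Of 29 rows for the vacuolar proton pump 2 had values, atp6ap1a and the subunit gene atp6v1e1a, which was at 7.65 to 10.7 FPKM in TG and 20.9 to 66.2 FPKM in WT hearts at 12 mpf (log2 difference -1.75, limma, adjusted p = 0.999). Of 29 rows for WASP proteins and the Arp2/3 complex and 11 rows for MAP7 proteins and kinesin-1 heavy chains, wasla and map7d3 alone had values. None of the 3 family rows that are no member passed in the 6 comparisons.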

How the data were processed

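The deposited values were FPKM made by the authors, per the name of the table, in 12 libraries of 4 groups taken from the titles. The submitters' processing notes list STAR, RSEM, Trim Galore and DESeq2 beside the build GRCz11. Versions, annotation release, scaling basis and strand setting: not given in the sources used here. Of 32520 rows 400 held values, and the others were not analysed here. All 12 value columns matched a library, with 0 left over.

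Reads behind the FPKM were recovered from a factor per library, solved on 12 mitochondrial protein rows, and a length per row. All 400 rows gave whole reads within 0.0001. Precision was read from these reads, with a floor of 3 reads for a value of 0.

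Rows reaching 1 FPKM in 3 or more libraries, all 400, were fitted as log2(FPKM + 1) with limma 3.58.1 (R 4.3.3, eBayes with trend and robust) with 1 mean per group over the 12 libraries. Tests were two-sided, adjusted by Benjamini-Hochberg over all rows, with a threshold of 0.05. A difference is on the log2(FPKM + 1) scale and understates the change of low rows. The fit was also run on simulated counts with 1 spread for all rows of an age. That run checked the direction of differences, and its setting does not cover the spread of single members. Coordinates, likeness and figures used Python 3.11.15, numpy 2.4.6, pandas 2.3.3 and matplotlib 3.10.9.

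The 5 members and the gene lists were chosen with earlier results of these data known. Named besides the members were their opposite partners, the 3 rows most like each member and rows opposite listed muscle genes. Rows with values on the muscle, family and other-cell lists were also named. Alternatives concerned the pseudocount, filter, scaling, spread, count model, replicate block and libraries left out.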

Additional observations from a re-analysis of the deposited data

How the results depend on the processing

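With each library left out in turn, the genotype difference of map7d3 lay between -0.92 and 0.0754 at 4 mpf and between -0.28 and 0.21 over both ages. That of atp6ap1a lay between -0.19 and 1.61 at 12 mpf and between -0.94 and 0.30 over both ages, and that of CR762497.1 at 12 mpf between -0.35 and 0.14. For wasla the interaction lay between -0.0355 and 3.41, and the age difference between -0.42 and 3.02 in TG and between -0.74 and 0.0553 in WT hearts. The age difference of zdhhc13 in TG hearts lay between -0.87 and 0.0398. With log2(FPKM + 5) and with arrayWeights the difference of atp6ap1a over both ages was 0.110 and 0.0884. Of the 670 alternative values of the members, 328 with a library left out and 301 under other settings kept their direction and their side of the threshold.

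The number of rows past the threshold was 13 at 4 mpf, 0 at 12 mpf, 4 over both ages, 2 for the interaction, and 14 with age in TG and 16 in WT hearts. With a library left out these counts ranged from 9 to 37, 0 to 1, 3 to 14, 0 to 15, 0 to 24 and 4 to 71, and WT replicate 3 of 4 mpf gave the highest in all but the age comparison of TG hearts, where it was WT replicate 1 of 4 mpf. With log2(FPKM + 0.1) the counts were 8 over both ages and 0 for the interaction, and with log2(FPKM + 5) 1 for the interaction and 9 with age in WT hearts. For each age alone they were 0 at 4 mpf (29 unadjusted) and 1 at 12 mpf. With arrayWeights they were 0 at 4 mpf (30 unadjusted), 2 at 12 mpf, 2 over both ages and 1 with age in WT hearts. The interaction count was 0 with both other scalings (34 unadjusted each) and 1 by limma voom and by eBayes without trend. Scaling to the reads outside rRNA and mitochondrial rows gave 8 with age in TG hearts (3 higher and 5 lower, against 8 and 6). By limma voom 29 rows passed with age in WT hearts, and by eBayes without trend 2 with age in TG hearts.

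Samples with the same replicate number did not deviate together (correlations from -0.41 to 0.07), and those with different numbers had correlations from -0.19 to 0.40. Such correlations cannot show whether samples were collected or prepared in pairs, and the main fit used no pairing. With the replicate block 0 rows passed in each of the 6 comparisons, with 67 unadjusted at 4 mpf, 37 over both ages, 27 for the interaction, and 66 and 81 with age in TG and WT hearts, and the calls of CR762497.1 and map7d3 with age in TG hearts had an adjusted p of 0.0943 and 0.127 (limma). For all of these the cause was not tested. At 4 mpf the values of atp6ap1a rest on 0 to 58 reads per library.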

Other observations

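Apart from the 5 lists of sarcomere, Z-disc, stress and calcium-handling genes, 5 rows with values lay opposite a gene on the lists of other cell types that the tissue could hold. They were si:ch73-314g15.3 (opposite spi1b, a transcription factor of myeloid cells), cldni (opposite coro1a, a coronin of leukocytes), kifc3 (opposite the epicardial gene wt1b), stambpl1 (924 bases from the end of the smooth muscle actin gene acta2) and rpl17 (opposite pgam2, a gene of fast skeletal muscle). None of them passed in any of the 6 comparisons (limma). The row of rpl17 shares 4973 bases with pgam2, and it also contains the 3′ end of nefma, with 4606 bases shared. The row of cldni was at 380, 112 and 357 FPKM in TG and 41.0, 65.7 and 81.5 FPKM in WT hearts at 4 mpf (limma, adjusted p = 0.0752). At 12 mpf it was at 106 to 146 FPKM in TG and 78.4 to 138 FPKM in WT hearts, with overlap. The row of kifc3 was at 10.2, 4.02 and 0 FPKM in TG hearts of 4 mpf and listed at 0 in the 3 WT libraries. At 12 mpf it was at 8.50 to 19.5 FPKM in TG and 2.504 to 8.02 FPKM in WT hearts, without overlap (limma, adjusted p = 0.999). The row of rpl17 was at 283 to 310 FPKM in TG and 126 to 203 FPKM in WT hearts at 12 mpf, also without overlap. Such a separation, with TG higher, was found in 11.5% of all rows at that age. At 4 mpf rpl17 was at 49.4 to 164 FPKM in TG and 27.1 to 291 FPKM in WT hearts. The genotypes of si:ch73-314g15.3 and stambpl1 overlapped at both ages.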
